A study of Mus musculus with 12 samples.

Results

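Protocadherin genes, here all genes whose symbol begins with Pcdh, were followed in cone photoreceptors sorted from degenerating mouse retinas. Of the 19906 genes with a probe naming 1 gene, 34 were protocadherins, of which 22 were clustered Pcdhb genes and 12 were non-clustered. For each gene the probe with the brightest mean signal over all arrays was used. The arrays measured RNA from cones of C3H/HeNCrl (Pde6brd1) mice, a strain whose rods die early because the rod phosphodiesterase is defective, so that every group carried the same retinal degeneration. Subretinal injection of an adeno-associated virus delivered a construct driven by mCAR, the mouse cone arrestin promoter, and labelled cells were collected by fluorescence-activated sorting. Control cones expressed EGFP, a green fluorescent protein, and were taken from animals aged 110 days (4 arrays) and 220 days (4 arrays), with 500 cells per array. The other cones expressed eNpHR-EYFP, in which halorhodopsin, a chloride pump that light drives, is joined to a yellow fluorescent protein, and were taken at 165 days (4 arrays), with 300 cells per array. Construct, age and number of cells differed together between these groups, and their contributions cannot be told apart. The labels call the 4 arrays of a group biological replicates without naming the animals, and there was no group without virus and none with a healthy retina.

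Protocadherins are the largest family of cadherins, transmembrane proteins that bind copies of themselves on neighbouring cells. The clustered genes lie in tandem arrays called alpha, beta and gamma. Single neurons switch on different subsets of them, so that each neuron carries its own surface identity and its branches can recognise and avoid each other. CTCF and cohesin bring a distant enhancer to the promoter of a chosen exon, and DNA methylation silences the others. Each Pcdhb gene is a single exon with its own promoter. Non-clustered protocadherins stand alone in the genome and are grouped by the sequence of their intracellular tails, mainly into delta-1 and delta-2. They act in axon growth, cell sorting and synapse formation, and Pcdh15 is an Usher syndrome gene whose protein is found at the outer segments of photoreceptors.

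The deposited intensities ran from 1.7 to 10242.1 and array medians from 6.6 to 7.1. The brightest 5% of probes began at 114 to 134 on EGFP arrays but at 173 to 185 on eNpHR-EYFP arrays, and results are therefore given on the scale as deposited and again after quantile normalization. The EGFP columns of the deposited table were shifted against their probe names from data row 13588 on and were realigned to the eNpHR-EYFP columns, which involved every protocadherin but Pcdh15. The 22 Pcdhb genes occupied consecutive lines and all moved by 6. Levels are log2 intensities of 1 probe, and a difference of 1 is a 2-fold change. How strongly a probe lights up depends on its sequence, so differences were taken for each probe across arrays. Rankings of probes by brightness describe signal and do not compare RNA amounts between genes. The median gene had a mean level of 2.86, and 12 of 22 Pcdhb and 7 of 12 non-clustered genes lay above it.

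The sorts differed in their content of cone RNA. The mean level of 8 cone markers was 4.77 to 8.12 on the 110-day EGFP arrays, 5.91 to 7.12 at 220 days and 7.32 to 9.20 on the eNpHR-EYFP arrays, and limma called 3 of the 8 markers higher with eNpHR-EYFP, beside 23% of all genes. Among the other retinal cell types, the markers called higher with eNpHR-EYFP were 1 of 5 for rods, 1 of 7 for bipolar cells, 3 of 8 for amacrine cells, 1 of 4 for horizontal cells, 4 of 7 for ganglion cells, 1 of 8 for Müller glia, 4 of 7 for microglia and 2 of 5 for pigment epithelium. A single horizontal and a single microglial marker were lower. None of 6 vessel markers was called in limma, and 2 had an unadjusted p under 0.05, both lower. After quantile normalization, with 16.1% of all genes called higher, the counts higher were 1 for cones, 0 for rods, 2 each for amacrine, ganglion and microglial markers and otherwise as before. An amacrine and a Müller marker were then called lower besides the horizontal and the microglial one. In sorted pools, fewer cells of a type and less RNA per cell cannot be told apart.

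Pcdhb genes changed in both directions between cones with eNpHR-EYFP and cones with EGFP. In limma, comparing eNpHR-EYFP with the mean of both EGFP ages, 2 of the 22 genes (Pcdhb9 and Pcdhb2) were higher and 5 (Pcdhb21, Pcdhb7, Pcdhb16, Pcdhb22 and Pcdhb6) were lower at a Benjamini-Hochberg adjusted p under 0.05. That is 31.8% of the class, beside 33.1% of all 19906 genes. By direction the background was 23% of genes higher and 10.1% lower, beside 9.09% and 22.7% of Pcdhb genes. The median difference was -0.21 for Pcdhb genes and 0.07 for all genes, and Pcdhb differences ran from -1.51 to 1.35. Quantile normalization gave 2 higher and 6 lower with the median again at -0.21, while all genes then had a median of 0.02, with 28.5% of them called, 16.1% higher and 12.4% lower. No test was made between the class and other genes.

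**Figure D1:**
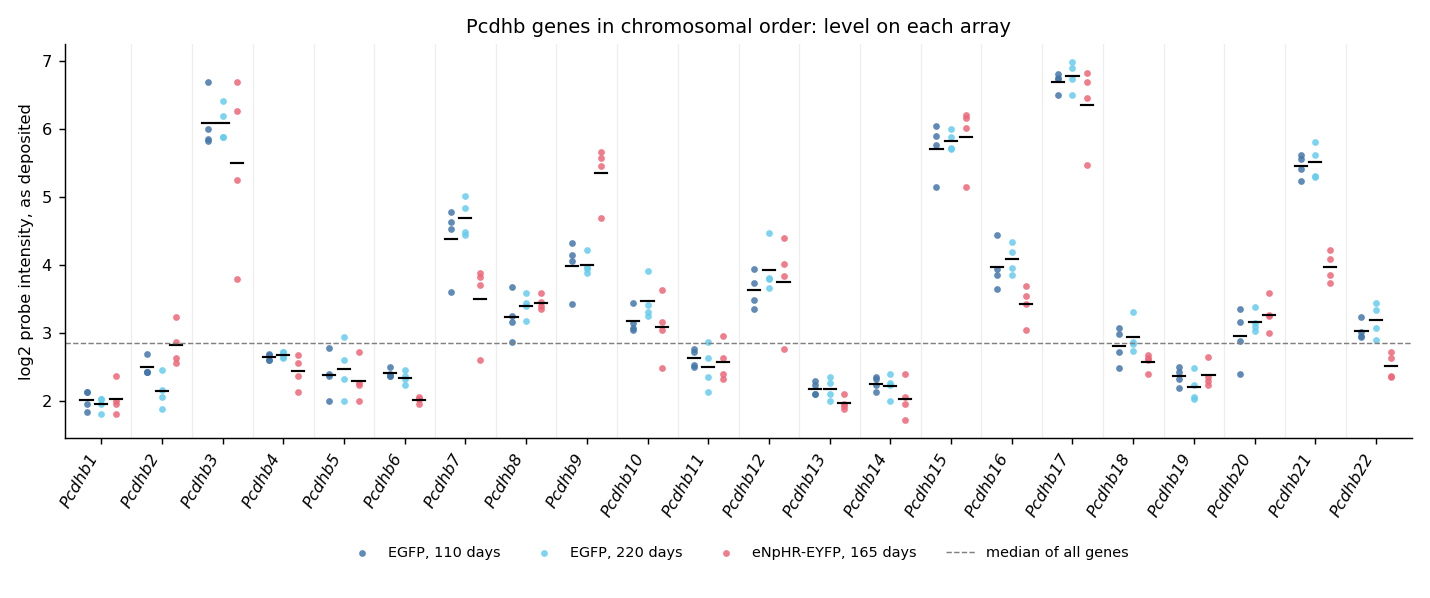
Log2 probe intensity of the 22 Pcdhb genes (y axis) on each of the 12 arrays. Points are arrays, coloured by group, bars are group means of 4 arrays, and the dashed line is the median gene at 2.86. The 4 eNpHR-EYFP points of Pcdhb21 lie below all 8 EGFP points and those of Pcdhb9 lie above them, while Pcdhb3 and Pcdhb17 each have 1 eNpHR-EYFP array far below the rest.

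Pcdhb21 had the largest difference of the family. Its log2 level was 5.55, 5.61, 5.24 and 5.41 in replicates 1 to 4 of EGFP at 110 days and 5.30, 5.62, 5.80 and 5.30 at 220 days. With eNpHR-EYFP it was 4.09, 4.22, 3.86 and 3.73. Every eNpHR-EYFP array lay below every EGFP array, with a gap of more than 1 between the groups. The difference was -1.51 ± 0.13 (SE), 2.84-fold lower, with a limma Benjamini-Hochberg adjusted p of 1.61e-05. After quantile normalization it was -1.73.

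Pcdhb9 moved the other way, although it sits in the same gene array and its probe was moved by the same number of lines. Its level was 4.32, 4.05, 3.43 and 4.15 in EGFP cones at 110 days, and 3.97, 3.94, 4.22 and 3.88 at 220 days. With eNpHR-EYFP it was 5.58, 5.66, 5.46 and 4.69. The eNpHR-EYFP arrays were all above the EGFP arrays, and replicate 4 was the nearest to them. The difference was 1.35 ± 0.20 (SE), 2.55-fold higher (limma, Benjamini-Hochberg adjusted p = 0.000469), and 1.07 after quantile normalization.

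Pcdhb22 and Pcdhb6 were lower on every eNpHR-EYFP array by smaller amounts. Pcdhb22 read 3.23, 3.02, 2.96 and 2.94 at 110 days, 3.34, 3.45, 3.07 and 2.91 at 220 days, and 2.63, 2.72, 2.38 and 2.35 with eNpHR-EYFP. Its difference was -0.59 ± 0.12 (SE), 1.51-fold lower, at a limma Benjamini-Hochberg adjusted p of 0.00317. For Pcdhb6, a probe below the median gene, the levels were 2.38, 2.51, 2.41 and 2.38, then 2.23, 2.46, 2.32 and 2.38, and with eNpHR-EYFP 2.04, 2.04, 2.07 and 1.96. The groups were separate and narrow, and the difference was -0.36 ± 0.07 (SE), 1.28-fold lower (limma, Benjamini-Hochberg adjusted p = 0.00251). The linear means of Pcdhb6 were 5.35, 5.1 and 4.075, so the change was small in intensity and close to the floor of the arrays. 

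The other 3 called Pcdhb genes had groups that overlapped. Pcdhb7 read 4.79, 4.53, 3.61 and 4.63 at 110 days, 4.83, 5.01, 4.49 and 4.45 at 220 days, and 3.71, 3.83, 3.89 and 2.61 with eNpHR-EYFP. The overlap came from EGFP replicate 3 at 110 days, which was below 3 of the 4 eNpHR-EYFP arrays. Its difference was -1.03 ± 0.27 (SE), 2.05-fold lower, at a limma Benjamini-Hochberg adjusted p of 0.014.

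Pcdhb16 read 4.45, 3.94, 3.64 and 3.85 at 110 days, 4.34, 3.96, 3.86 and 4.19 at 220 days, and 3.55, 3.69, 3.43 and 3.05 with eNpHR-EYFP. Again only EGFP replicate 3 at 110 days reached into the eNpHR-EYFP range. The difference was -0.60 ± 0.16 (SE), 1.51-fold lower (limma, Benjamini-Hochberg adjusted p = 0.0168), and it missed the threshold without eNpHR-EYFP replicate 4, at -0.47 and an adjusted p of 0.054. Over all alternatives tried the adjusted p of Pcdhb16 ran from 0.0101 to 0.244.

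Pcdhb2 was a dim probe, at 2.70, 2.43, 2.43 and 2.43 at 110 days and 2.07, 2.17, 2.46 and 1.89 at 220 days. With eNpHR-EYFP it was 2.87, 2.63, 2.56 and 3.23. It was above all 220-day EGFP arrays but overlapped with replicate 1 at 110 days. The difference was 0.50 ± 0.14 (SE), 1.41-fold higher, at a limma Benjamini-Hochberg adjusted p of 0.0189. It was not called without eNpHR-EYFP replicate 1 (adjusted p = 0.0514) or without replicate 4 (0.0551), with a range of 0.0116 to 0.0921 over the alternatives.

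The Pcdhb genes with groups that did not overlap at all were 4 of those called, 1 higher (Pcdhb9) and 3 lower (Pcdhb21, Pcdhb22 and Pcdhb6). Of all genes, 14.2% were higher and 6.14% lower without overlap. The other 15 Pcdhb genes did not pass the limma test. They included the 2 brightest Pcdhb probes, Pcdhb17 and Pcdhb3, whose spread among the eNpHR-EYFP arrays was wide. Pcdhb17 was 6.50 to 6.98 over the 8 EGFP arrays and 6.82, 6.69, 6.45 and 5.47 with eNpHR-EYFP, so that 3 arrays were within or next to the EGFP range and replicate 4 was far below. Its difference was -0.38 ± 0.21 (SE) with a limma Benjamini-Hochberg adjusted p of 0.215 as deposited, and it was -0.82 with an adjusted p of 0.0112 after quantile normalization. On the deposited scale it was -0.08 without eNpHR-EYFP replicate 4 and -0.53 without replicate 1, not called in either fit.

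Pcdhb3 ran from 5.83 to 6.69 over the EGFP arrays and stood at 6.69, 6.26, 5.24 and 3.80 with eNpHR-EYFP. The SD of 1.29 among these 4 arrays was the widest of any Pcdhb gene. Its difference of -0.59 had a 95% interval of -1.53 to 0.35 and turned on single arrays: it was -0.02 without eNpHR-EYFP replicate 4 and -0.99 without replicate 1, neither called. After quantile normalization it was -0.97, not called, and with the cone marker mean as a covariate 0.04. Pcdhb15, the third of the bright probes, was 5.14 to 6.04 with EGFP and 6.01, 6.21, 6.15 and 5.15 with eNpHR-EYFP, with a difference of 0.11, an interval of -0.34 to 0.57 and a difference of 0.36, not called, without replicate 4. After quantile normalization the difference of Pcdhb15 had the opposite sign, -0.28, and was not called either.

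At the dim end, Pcdhb1 (mean level 2.01), Pcdhb13 (2.11) and Pcdhb14 (2.18) lay near the floor of the arrays, with differences of 0.05, -0.21 and -0.20, none of them called. Pcdhb4 and Pcdhb18 had differences of -0.23 and -0.30 with limma Benjamini-Hochberg adjusted p-values of 0.0971 and 0.117. Pcdhb5, Pcdhb8, Pcdhb10, Pcdhb11, Pcdhb12, Pcdhb19 and Pcdhb20 had differences between -0.24 (Pcdhb10) and 0.22 (Pcdhb20).

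Single arrays were low in many Pcdhb genes at once. Replicate 4 of eNpHR-EYFP was the lowest of its group for 15 of 22 Pcdhb genes (68.2%), for 5 of 12 non-clustered genes and for 27.0% of all genes. It was the lowest of all 12 arrays for 9 Pcdhb genes (40.9%) and for 8.25% of all genes. It fell more than 1 below the mean of the other 3 eNpHR-EYFP arrays for Pcdhb3, Pcdhb7, Pcdhb12 and Pcdhb17, which is 18.2% of Pcdhb genes beside 2.47% of all genes. Without that array 1 Pcdhb gene was higher and 4 were lower, and the median difference was -0.03. The share of all genes called without it is not given here. In the 110-day EGFP group, replicate 3 was lowest for 11 of 22 Pcdhb genes (50%) and for 29.8% of all genes, and replicate 1 was highest for 12 of 22 and for 4675 of all 19906 genes.

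These arrays also stood at the ends of the cone marker range. In EGFP cones at 110 days, the mean Pcdhb level of replicates 1 to 4 was 3.66, 3.47, 3.28 and 3.52, and the mean cone marker level was 4.77, 7.57, 8.12 and 5.20. With eNpHR-EYFP the Pcdhb means were 3.51, 3.56, 3.29 and 2.97, and the cone marker means 7.89, 7.32, 8.76 and 9.20. Within each of these groups, the array with more cone marker signal had the lower Pcdhb mean, in every position of the order. At 220 days the Pcdhb means were 3.52, 3.54, 3.59 and 3.49 and the cone marker means 5.91, 6.90, 7.09 and 7.12, with no such order.

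**Figure D2:**
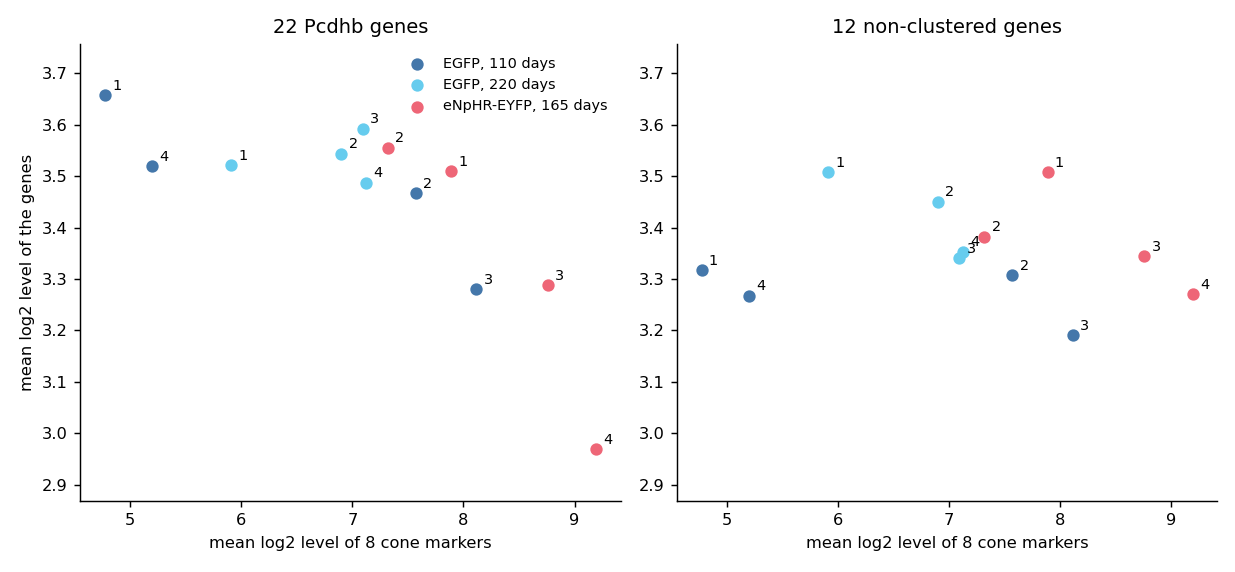
Mean log2 level of the 22 Pcdhb genes (left) and of the 12 non-clustered genes (right) on each array, against the mean log2 level of 8 cone markers on the same array. Points are arrays coloured by group and numbered by replicate. The lowest Pcdhb mean, 2.97, and the highest cone marker mean, 9.20, belong to eNpHR-EYFP replicate 4.

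The mean level of 8 Müller glia markers was 5.75, 5.36, 4.67 and 5.56 at 110 days, 5.53, 5.42, 5.63 and 5.73 at 220 days, and 6.55, 5.95, 5.49 and 5.44 with eNpHR-EYFP. It had the same order over arrays as the Pcdhb mean at 110 days, the same order except for replicates 1 and 2 with eNpHR-EYFP, and another order at 220 days. These orders were not particular to Müller markers. Amacrine markers had the Pcdhb order at 110 days (4.238, 3.722, 3.717 and 3.824). Bipolar markers had the Müller order with eNpHR-EYFP (4.857, 4.737, 4.573 and 4.506). Rod markers had the cone marker order in both groups. Their means were 2.958, 3.793, 4.090 and 3.096 at 110 days, and 3.966, 3.780, 4.184 and 4.186 with eNpHR-EYFP. The inverse order to Pcdhb was therefore not particular to cone markers. In these groups the remaining lists were ordered otherwise. The part of cell content in the Pcdhb differences was not tested by separating cells, but the fit could be repeated with the cone marker mean as a covariate, an alternative chosen after seeing the data. Then 2 Pcdhb genes were higher and 2 lower, with a class median of 0.04. Pcdhb9 was at 1.72, Pcdhb21 at -1.41 and Pcdhb6 at -0.40, all still called, and Pcdhb20 was called at 0.58. Calls for Pcdhb2, Pcdhb7, Pcdhb16 and Pcdhb22 were lost, the last at a limma Benjamini-Hochberg adjusted p of 0.0518 where its alternatives ran from 0.00149 to 0.0518. Leaving out the 3 EGFP arrays lowest in Arr3, the cone arrestin gene, also chosen after seeing the data, left 1 Pcdhb gene higher and 3 lower. The shares of all genes called in these refits are not given here. The cone marker mean was 4.77 to 8.12 and 5.91 to 7.12 in the EGFP groups but 7.32 to 9.2 with eNpHR-EYFP. The covariate therefore varied with the group, and the fit cannot separate cone content from the construct.

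Non-clustered protocadherins gave 2 genes higher and none lower in limma in the same comparison, 16.7% of the 12 beside the 33.1% of all genes. Unadjusted p-values were under 0.05 for 5 of the 12, and for 8939 of all 19906 genes. The median difference was -0.01 and the differences ran from -0.50 to 0.77, a narrower range than that of the Pcdhb genes. After quantile normalization 1 was higher and 2 were lower, beside 16.1% and 12.4% of all genes, with a median of -0.06. Both genes called higher as deposited, Pcdh10 and Pcdh18, are among the 5 genes of the delta-2 subfamily, beside 23% of all genes called higher. None of the 4 delta-1 genes and none of the 3 remaining genes was called in limma. Unadjusted p-values were under 0.05 for 3 delta-2, 2 delta-1 and 0 remaining genes.

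**Figure D3:**
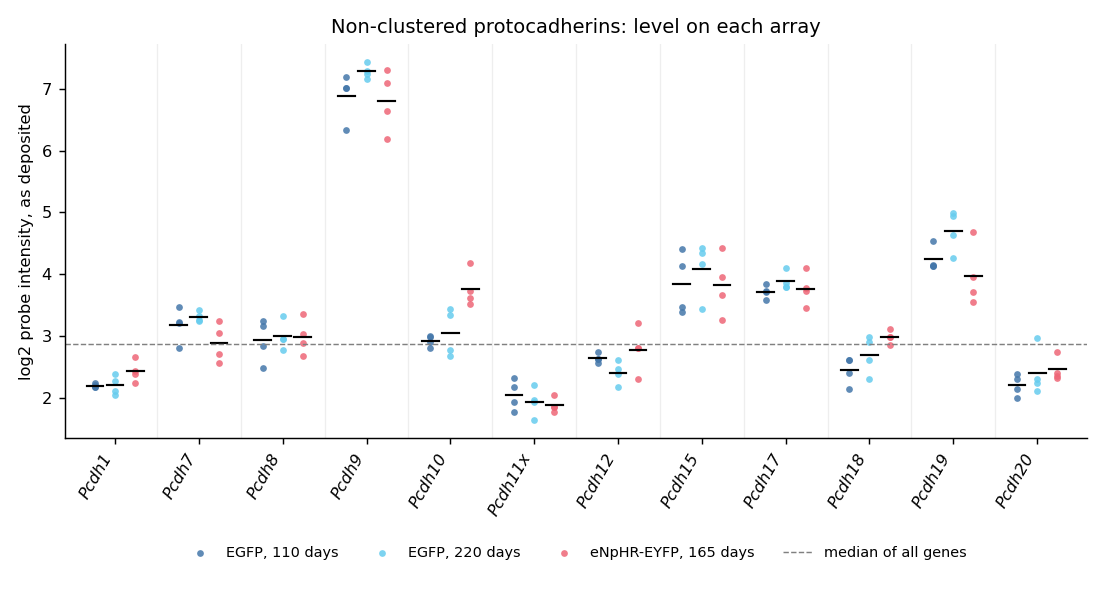
Log2 probe intensity of the 12 non-clustered protocadherins (y axis) on each of the 12 arrays, drawn as for the Pcdhb genes with bars at the means of 4 arrays and the median gene at 2.86. The 4 eNpHR-EYFP points of Pcdh10 lie above all 8 EGFP points, whereas the groups of the other 11 genes overlap.

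Pcdh10, a delta-2 protocadherin that recruits the actin regulating WAVE complex and acts in axon growth, showed the clearest change of the non-clustered genes. It read 2.91, 3.0, 2.98 and 2.81 in EGFP cones at 110 days and 3.34, 3.43, 2.68 and 2.77 at 220 days. With eNpHR-EYFP it was 4.18, 3.61, 3.73 and 3.52. All eNpHR-EYFP arrays were above all EGFP arrays, and it was the only non-clustered gene without overlap. The difference was 0.77 ± 0.16 (SE), 1.71-fold higher, at a limma Benjamini-Hochberg adjusted p of 0.00439, and 0.70 after quantile normalization.

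Pcdh18, a delta-2 protocadherin that binds the adaptor Dab1, was at 2.41, 2.61, 2.14 and 2.61 at 110 days, 2.91, 2.98, 2.61 and 2.29 at 220 days, and 3.10, 2.98, 2.85 and 2.98 with eNpHR-EYFP. Its eNpHR-EYFP arrays were above all 110-day arrays but overlapped with replicates 1 and 2 at 220 days. The difference was 0.41 ± 0.14 (SE), 1.33-fold higher, at a limma Benjamini-Hochberg adjusted p of 0.0427. The call was lost in 12 of 23 alternatives. Among them were quantile normalization, with 0.40 and an adjusted p of 0.0563, and 8 of the 12 fits without 1 array: replicate 1 or 3 of EGFP at 110 days, replicate 3 or 4 at 220 days, or any eNpHR-EYFP replicate. The difference was 0.34 to 0.45 in those 8 fits, and the adjusted p ran from 0.0284 to 0.115 over all of them.

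Both genes lie on mouse chromosome 3, and the stretches of 250 bases before their start sites are shown. They were the non-clustered members called against the mean of both EGFP ages on the scale as deposited. Against 220 days alone Pcdh18 was not called. The sequences are those of RefSeq on GRCm38.p6, where 9 of the 34 members had an entry. Pcdh10 covers chr3:45378148-45378397 on the plus strand with 63.2% G and C and 22 CpG dinucleotides, and Pcdh18 covers chr3:49757317-49757566 on the minus strand with 68% and 23. They are written 5′ to 3′ in the direction of the gene, with capitals for matches to the GC box GGGCGG or the CCAAT box on either strand.
Pcdh10: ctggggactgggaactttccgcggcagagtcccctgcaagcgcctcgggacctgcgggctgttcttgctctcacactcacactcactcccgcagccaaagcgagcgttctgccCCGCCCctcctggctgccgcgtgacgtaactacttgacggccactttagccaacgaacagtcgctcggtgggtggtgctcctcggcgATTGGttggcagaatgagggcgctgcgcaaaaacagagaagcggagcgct
Pcdh18: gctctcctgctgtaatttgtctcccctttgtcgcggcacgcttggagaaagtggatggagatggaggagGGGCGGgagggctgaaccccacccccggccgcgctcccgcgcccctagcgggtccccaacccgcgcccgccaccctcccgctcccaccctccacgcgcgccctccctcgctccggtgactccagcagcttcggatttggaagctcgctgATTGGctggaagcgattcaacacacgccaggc

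Each promoter held 1 GC box and 1 CCAAT box in these 250 bases. Of the 32851 promoters in the table, 32.7% held GGGCGG and 33.8% held CCAAT on either strand. Among the 9 members with an entry, the GC box was found in 4 (Pcdh10, Pcdh17, Pcdh18 and Pcdh19) and the CCAAT box in 8, all but Pcdh7. The letters TATAAA of the TATA box were found in Pcdh15 and Pcdh8, against 12.4% of all promoters. TAATCC, the core that the photoreceptor factors Crx and Otx2 recognise, was in none of the 9 windows and in 6.25% of all promoters. These are matches of letters within this window and no measure of binding.

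Of the other delta-2 genes, Pcdh19, an X-linked gene mutated in an epilepsy of girls, was lower with eNpHR-EYFP than with EGFP at 220 days. It read 4.54, 4.14, 4.15 and 4.14 at 110 days, 4.99, 4.94, 4.26 and 4.63 at 220 days, and 4.68, 3.95, 3.71 and 3.55 with eNpHR-EYFP. Replicate 1 of eNpHR-EYFP lay inside the 220-day range and the other 3 below it. Against the mean of both ages the difference was -0.50 ± 0.21 (SE), which missed the threshold (limma, Benjamini-Hochberg adjusted p = 0.0935), and against 220 days it was -0.73 with an adjusted p of 0.0479. That call was lost in 15 of 25 alternatives, including 10 of the 12 fits without 1 array (all but EGFP replicate 3 at 220 days and eNpHR-EYFP replicate 1), where the difference was -0.75 to -0.59. Over all of them the adjusted p ran from 0.00622 to 0.238. Quantile normalization gave -0.68 against the mean of both ages with an adjusted p of 0.0224.

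Pcdh17, which organises presynaptic vesicles, had group means of 3.72 ± 0.11, 3.89 ± 0.15 and 3.76 ± 0.27 (SD, n = 4 each) for 110 days, 220 days and eNpHR-EYFP. Its difference of -0.04 had a 95% interval of -0.29 to 0.21. Pcdh8, or arcadlin, which neuronal activity induces, had means of 2.93 ± 0.35, 2.99 ± 0.23 and 2.99 ± 0.28 (SD, n = 4 each) and an interval of -0.34 to 0.39. Neither was called, although with the cone marker mean as a covariate Pcdh8 was higher by 0.43 at a limma Benjamini-Hochberg adjusted p of 0.0257.

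In the delta-1 subfamily, Pcdh9 had the brightest probe of all members. It read 7.19, 7.02, 6.34 and 7.02 at 110 days, 7.44, 7.25, 7.30 and 7.17 at 220 days, and 7.31, 7.10, 6.64 and 6.18 with eNpHR-EYFP. Replicates 3 and 4 of eNpHR-EYFP and replicate 3 at 110 days were low, the same arrays that were low in the Pcdhb genes. Its difference was -0.28 ± 0.21 (SE), not called (limma, Benjamini-Hochberg adjusted p = 0.344), and after quantile normalization it was -0.75 with an adjusted p of 0.0174. Without eNpHR-EYFP replicate 4 it was -0.07 and without replicate 1 -0.45, neither called, and with the cone marker mean as a covariate it was 0.12. A second, dimmer Pcdh9 probe gave -0.04.

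Pcdh7, a delta-1 protocadherin of retinal axons, had means of 3.17 ± 0.27, 3.31 ± 0.08 and 2.89 ± 0.31 (SD, n = 4 each), and Pcdh1, found in epithelia, 2.19 ± 0.03, 2.20 ± 0.15 and 2.42 ± 0.18. Their differences of -0.36 and 0.23 had limma Benjamini-Hochberg adjusted p-values of 0.0844 and 0.0864. Pcdh11x, the dimmest member, had means of 2.05 ± 0.25, 1.93 ± 0.23 and 1.87 ± 0.11 (SD, n = 4 each), close to the floor.

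The remaining 3 genes include Pcdh15, the protocadherin of hair cell tip links. Its brightest probe read 3.38, 4.13, 4.41 and 3.46 at 110 days, 3.43, 4.16, 4.34 and 4.42 at 220 days, and 3.66, 3.26, 4.42 and 3.95 with eNpHR-EYFP. The arrays of each group spread over about 1 log2 unit. The low EGFP arrays were replicates 1 and 4 at 110 days and replicate 1 at 220 days, which are also the 3 EGFP arrays lowest in Arr3. The difference was -0.14 ± 0.27 (SE), not called, and with the cone marker mean as a covariate it was -0.78 with a limma Benjamini-Hochberg adjusted p of 0.0141. A second, dimmer Pcdh15 probe read 2.26 to 2.66 at 110 days, 2.14 to 2.72 at 220 days and 2.61 to 2.96 with eNpHR-EYFP, and was higher by 0.37 ± 0.12 (SE) at an adjusted p of 0.0351. The probes of this gene disagree in sign, so no direction is given for Pcdh15.

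Pcdh12, a protocadherin of blood vessel endothelium, had means of 2.64 ± 0.08, 2.40 ± 0.18 and 2.78 ± 0.37 (SD, n = 4 each), and Pcdh20 had 2.20 ± 0.17, 2.40 ± 0.38 and 2.46 ± 0.20. Neither was called. Of the vessel markers beside it, 2 of 6 were lower at an unadjusted p under 0.05 and none was called in limma; their part in the Pcdh12 values was not tested.

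**Figure D4:**
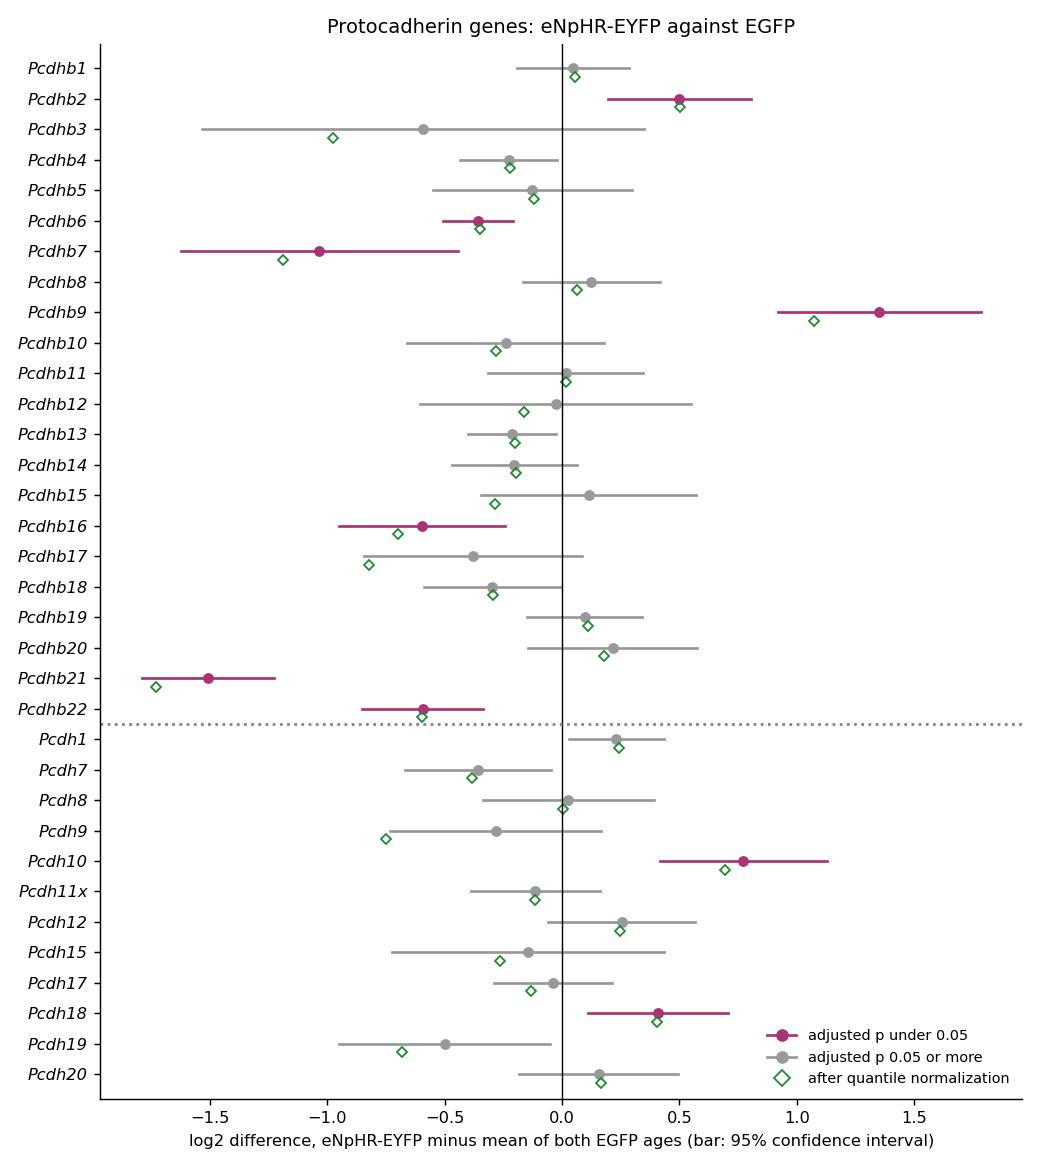
Log2 difference between eNpHR-EYFP and EGFP cones for each of the 34 members, with both EGFP ages averaged. Points are limma estimates on the scale as deposited with 95% intervals, coloured purple where the adjusted p was under 0.05 and grey otherwise, and open green diamonds are the estimates after quantile normalization. Pcdhb21 at -1.51 and Pcdhb9 at 1.35 form the ends of the range.

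Against each EGFP age by itself the called genes overlapped but were not the same. These comparisons share the eNpHR-EYFP arrays. Against 110 days, 1 Pcdhb gene was higher (Pcdhb9, 1.36) and 3 were lower (Pcdhb21, -1.48; Pcdhb22, -0.52; Pcdhb6, -0.39), or 18.2% of the class beside 28% of all genes (19.9% higher, 8.11% lower). Non-clustered Pcdh10 (0.84) and Pcdh18 (0.54) were higher. Against 220 days, Pcdhb9 (1.34) and Pcdhb2 (0.68) were higher and Pcdhb21 (-1.53), Pcdhb7 (-1.19), Pcdhb22 (-0.67), Pcdhb16 (-0.65) and Pcdhb6 (-0.32) were lower, or 31.8% beside 25.2% of all genes (17.8% higher, 7.4% lower). There Pcdh10 was higher at 0.71 and Pcdh19 lower at -0.73. Pcdhb9, Pcdhb21, Pcdhb22, Pcdhb6 and Pcdh10 passed in both. Several of these single-age calls rested on 1 array. Against 220 days, Pcdhb7 was not called without EGFP replicate 2 (-1.08), and Pcdhb16 was not without EGFP replicate 1 or 4 or eNpHR-EYFP replicate 3 or 4 (-0.66 to -0.53). Pcdh10 was not called against 220 days without EGFP replicate 3 or 4 or eNpHR-EYFP replicate 1 (0.57 to 0.61). Against 110 days, Pcdhb22 was not called without EGFP replicate 1 or eNpHR-EYFP replicate 3 (-0.45 and -0.47), nor Pcdh18 without EGFP replicate 1 or 3 or eNpHR-EYFP replicate 1 or 2 (0.44 to 0.54).

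Between EGFP cones at 220 and at 110 days no protocadherin was called by limma, and 0% of all genes were, while 1221 of 19906 genes had an unadjusted p under 0.05. A single member, Pcdhb2, had an unadjusted p under 0.05, with a difference of -0.35 ± 0.16 (SE) and a limma Benjamini-Hochberg adjusted p of 0.741. The next were Pcdh19 at 0.46 ± 0.24 and Pcdh9 at 0.39 ± 0.24. The median was 0.07 for Pcdhb genes, 0.15 for non-clustered genes and 0.00 for all genes. No member's groups were free of overlap, as they were for 3.87% of all genes.

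On the scale as deposited, regulators of the protocadherin clusters were called about as often as other genes. Of 19 measured, 3 were called higher and 4 called lower with eNpHR-EYFP, beside 33.1% of all genes called, and their median difference was -0.04. After quantile normalization 2 were higher and 5 lower, beside 16.1% and 12.4% of all genes. The cohesin cofactor Pds5b was 3.05 to 3.26 with EGFP and 2.23 to 2.70 with eNpHR-EYFP, lower by -0.60 ± 0.09 (SE). Nipbl, which loads cohesin onto DNA, was lower at -0.37 ± 0.08, and the cohesin subunit Stag1 at -0.37 ± 0.09. The cohesin subunit Rad21 was higher, at 2.51 to 3.0 with EGFP and 3.05 to 3.28 with eNpHR-EYFP, a difference of 0.42 ± 0.10. The limma Benjamini-Hochberg adjusted p-values of these 4 genes ran from 0.00068 (Pds5b) to 0.00912 (Rad21). The cohesin subunit Smc3, on a brighter probe, was 4.49 to 5.13 with EGFP and 4.03 to 4.84 with eNpHR-EYFP. It was called lower at -0.62 ± 0.16 (limma, Benjamini-Hochberg adjusted p = 0.0145), and at -0.85 after quantile normalization. The cohesin subunits Smc1a and Stag2 were not called. Ctcf, at 0.27, was not called, and neither were the DNA methyltransferase genes Dnmt1, Dnmt3a and Dnmt3b.

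Of 20 genes listed as intracellular partners and measured, 6 were called higher and 4 called lower, beside 23% and 10.1% of all genes. Their median difference was 0.15. Nap1l1, a nucleosome assembly gene and no WAVE complex subunit, was on this list and among the 6 called higher (0.80 ± 0.12, SE). After quantile normalization the counts were 5 and 5, beside 16.1% and 12.4% of all genes. The GTPase Rac1 was higher by 1.35 ± 0.12 (SE) and Brk1, the smallest WAVE complex subunit, by 1.23 ± 0.14, both without overlap. Pdcd10, a gene of familial cerebral cavernous malformation, was lower by -1.11 ± 0.13, at 7.61 to 7.97 with EGFP and 6.37 to 6.94 with eNpHR-EYFP. The phosphatase gene Ppp1ca was higher by 0.78 ± 0.09. Limma Benjamini-Hochberg adjusted p-values for these ran from 1.63e-05 (Rac1) to 0.000129 (Ppp1ca), and all 4 kept direction and call after quantile normalization, at 0.86, 0.72, -1.57 and 0.27. The kinase gene Ptk2b, whose product binds clustered protocadherin tails, was lower by -0.38 ± 0.10. The other WAVE complex genes on the list did not rise with Brk1. Nckap1 was at -0.43, not called (limma, Benjamini-Hochberg adjusted p = 0.053), and was called lower at -0.77 after quantile normalization. Wasf1, Wasf2, Cyfip2, Abi1 and Abi2 were called on neither scale.

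Proteases release the intracellular tails of protocadherins. Of 7 genes of the ADAM and gamma-secretase machinery measured, 3 were higher and none lower in limma on both scales. Of all genes, 23% were higher and 10.1% lower as deposited, and 16.1% and 12.4% after quantile normalization. The median difference of the list was 0.23 as deposited, and none of its genes was lower at an unadjusted p under 0.05 either. The 3 called higher were the gamma-secretase genes Psenen (0.99 ± 0.09, SE), Aph1b (1.13 ± 0.16) and Psen2 (0.88 ± 0.23). Their limma Benjamini-Hochberg adjusted p-values ran from 2.04e-05 to 0.0152. Adam10 and Adam17, the genes of the sheddases, were not called.

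Among 11 measured partners of Pcdh15, 1 was higher (Pdzd7) and 1 lower (Tmc1, -0.33), beside 33.1% of all genes called. Cdh23, the tip link partner of Pcdh15, was 2.04 to 2.32 with EGFP and 2.07 to 2.35 with eNpHR-EYFP, a difference of 0.00 ± 0.08 (SE). Cdhr1, the photoreceptor cadherin also known as Pcdh21, was 2.49 to 3.04 and 2.66 to 3.23, a difference of 0.18 ± 0.13 with a limma Benjamini-Hochberg adjusted p of 0.352.

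Other cadherins served as the wider family. Of 25 classical cadherins and catenins, 5 were called higher and 2 called lower, a share near the 33.1% of all genes, and their median difference was -0.01. They included Cdh7 (0.50 ± 0.07, SE), Cdh20 (0.55 ± 0.09) and the catenin Ctnnd1 (0.47 ± 0.11), which were higher, and N-cadherin Cdh2 (-0.40 ± 0.11), which was lower. After quantile normalization the counts were 3 and 4, beside 16.1% and 12.4% of all genes. Of 11 large cadherins of the Fat, Dachsous, Flamingo and calsyntenin kinds, Clstn1 (1.12 ± 0.11) and Clstn2 (0.39 ± 0.10) were higher and none was lower, beside 23% and 10.1% of all genes, while 2 were lower at an unadjusted p under 0.05. Of the 93 genes measured in these 6 lists, limma called none between the EGFP ages, and 7 had an unadjusted p under 0.05.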

How the data were processed

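Total RNA of 12 pools of sorted cones was hybridised to Affymetrix whole-transcript arrays. The submitters' processing notes name RMA and affy, with versions not given in the sources used here, and normalization between groups and the array's genome build are likewise not given. The deposited table of the authors holds linear intensity values, and log2 of the intensity was taken here.

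The EGFP columns lacked 31 of 34760 values, so that 21034 lines (60.6%) stood against the wrong probe. They were realigned by forward-backward alignment to the eNpHR-EYFP profile, keeping lines with a posterior of at least 0.999. That left out 111 lines, and 34618 probes were tested. Correlations of EGFP with eNpHR-EYFP arrays had a median of 0.421 before and 0.944 after, beside 0.934 over the 13584 lines in place. The alignment itself seeks a high value, so this is a description of the step.

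A probe was given a gene where its annotation named 1 symbol (21640 probes; 1321 named several and 11799 none). A fit of the 3 groups was made with limma 3.58.1 in R 4.3.3, with Benjamini-Hochberg adjustment over all probes, and tested on simulated data. The p-values rest on the spread of arrays within their groups, pooled over the 3 groups, which may be partly technical. That spread was unequal: the median SD of Pcdhb genes was 0.28 with eNpHR-EYFP, 0.17 at 110 days and 0.21 at 220 days. Named are all members called in a comparison, the 3 with the lowest p where none was, the 3 brightest and dimmest Pcdhb genes, all non-clustered genes, up to 4 called genes of each partner list, and Cdhr1 and Cdh23. Single genes outside that rule were chosen after their values were seen. Members and lists were chosen with earlier results of these data known. Protocadherin sequences are from RefSeq. Alternatives covered scaling, a pseudocount, a filter on dim probes, the variance model, weights, the replicate block, probe choice, alignment and each array left out.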

Additional observations from a re-analysis of the deposited data

Results flagged for a closer look

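In 3 of 102 combinations of a member and a group (2.94%), 1 array lay far from the other 3 by Dixon's criterion, where chance gives about 1 in 20, or 5.1. Pcdhb2 was 2.70 on replicate 1 of EGFP at 110 days and 2.43 on each of the others. Pcdh19 was 4.54 on that same array and 4.14 to 4.15 on the others. Pcdhb7 was 2.61 on replicate 4 of eNpHR-EYFP and 3.71 to 3.89 on the others.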

How the results depend on the processing

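None of the 24 called differences of single members reversed its direction in the alternatives tried. Differences that were not called did: Pcdhb15 went from 0.11 to -0.28 with quantile normalization, and Pcdhb3 and Pcdh9 from -0.59 and -0.28 to 0.04 and 0.12 with the cone marker mean as a covariate, which also moved the Pcdhb median from -0.21 to 0.04. Of the 9 members called against the mean of both EGFP ages, Pcdhb21, Pcdhb9, Pcdhb6 and Pcdh10 passed every alternative that could be fitted. The filter on dim probes left out Pcdhb6. The other 5 did not pass in at least 1 alternative. The 2 Pcdhb genes called higher became 1 with the filter on dim probes, which kept 13 of 22 Pcdhb and 7 of 12 non-clustered genes, and 1 after the 3 EGFP arrays with the lowest Arr3 level were left out. The 5 called lower became 3 without those arrays and 2 with the cone marker mean as a covariate. These last 2 alternatives were chosen after seeing the data. Apart from quantile normalization against the mean of both ages, the shares of all genes called in the alternatives are not given here. The 2 non-clustered genes called higher became 1 with quantile normalization, median centring, the filter, array weights or without the 3 arrays, and 3 (Pcdh10, Pcdh8 and Pcdh18) with the covariate. None was called lower, against 2 with quantile normalization and 1 with the covariate. Against 110 days, the 4 called Pcdhb genes became 7 with quantile normalization, and the 2 non-clustered genes became 1 with the filter, 0 without the 3 arrays and 4 with the covariate. Against 220 days, the 2 non-clustered genes became 1 with a pseudocount of 8, with the compared groups alone, with the trended and robust prior, without the 3 arrays and with the covariate, and 3 with quantile normalization.

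Leaving out 1 array at a time gave 1 to 2 Pcdhb genes higher and 4 to 6 lower, and 1 to 2 non-clustered genes higher and 0 to 1 lower. Against 110 days it gave 3 to 6 Pcdhb and 1 to 2 non-clustered genes, against 220 days 6 to 7 and 0 to 3, and 0 between the EGFP ages. The Pcdhb count of genes higher was 1 without eNpHR-EYFP replicate 1 or 4, and the non-clustered count against 220 days was 0 without EGFP replicate 4 at 220 days. Replicate numbers paired the arrays weakly at most. Correlations of deviations between arrays of the same number ran from -0.0386 to 0.143, with 2 of 12 above 0.1. In 5 of these 12 pairs the array matched best with its own number. Replicate 1 did so in every pair of groups. With the number as a block, 2 non-clustered genes were called lower (Pcdh7 and Pcdh19). A fit on the lines that stood in place gave no class count, because Pcdh15 alone was among them. The fit of the compared groups alone has no counterpart for both EGFP ages together. Dim probes limit the results: 10 Pcdhb and 5 non-clustered genes lay below the median gene.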

Other observations

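A single probe names 14 genes of the alpha cluster (Pcdha), and it was left out of the members because it cannot be given to 1 gene. Its log2 level was 2.41, 2.38, 2.32 and 2.61 on the EGFP arrays at 110 days and 2.46, 2.46, 2.54 and 2.49 at 220 days. With eNpHR-EYFP it was 2.83, 2.70, 2.70 and 2.58, so that 3 arrays were above every EGFP array and replicate 4 was inside their range. The difference against the mean of both ages was 0.25 ± 0.08 (SE), with a limma Benjamini-Hochberg adjusted p of 0.0312, on a probe below the median gene. Genes of the gamma cluster were not analysed here.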
